A study of Rattus norvegicus with 372 samples.

Results

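The transcripts described here are those of 8 genes of heme synthesis, Alas1, Alad, Uros, Urod, Cpox, Ppox, Fech and Abcb6, chosen by name among the 20946 gene symbols of a whole-transcriptome TempO-Seq table (WT assay) of primary rat hepatocytes. TempO-Seq counts reads of ligated detector oligos, and each of the 8 genes had 1 probe. A minimum of a mean of 10 reads over the wells left 10191 genes to test, 7 of the members among them. Abcb6 did not, with a mean of 1.03 reads per well. The smaller S1500+ panel (ST assay, 2604 symbols), run on the same lysates, held the same probes of 4 members, of which Alas1, Alad and Ppox passed the same minimum.

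All groups were freshly isolated hepatocytes of male Wistar rats in collagen sandwich culture, in a medium that contained insulin, dexamethasone and EGF in every group. The 28 treatments were acetaminophen at 10000 and 400 µM, caffeine at 10000 and 400 µM, chloramphenicol at 450 and 18 µM, diclofenac at 400 and 16 µM, doxorubicin at 2 and 0.08 µM, indomethacin at 300 and 12 µM, isoniazid at 10000 and 400 µM, ketoconazole at 15 and 0.6 µM, naproxen at 2000 and 80 µM, ranitidine at 4000 and 160 µM, simvastatin at 60 and 2.4 µM, sulfasalazine at 100 and 4 µM, valproic acid at 10000 and 400 µM and WY14643 at 200 and 8 µM, each for 24 h with 0.5% DMSO. They were compared with vehicle wells of the same batch, which held 0.5% DMSO without a chemical. Wells labelled media, called culture medium below, served as a second control, and no DMSO content is given for them. In batch 2 each of the plates 2 and 3 held vehicle wells, but in batch 1 all vehicle and medium wells were on plate 4. Acetaminophen, chloramphenicol, indomethacin, ketoconazole, sulfasalazine and WY14643 were on plate 5 there, so that plate and treatment cannot be told apart in their batch 1 contrasts. A batch was the hepatocytes of 1 rat, and libraries and sequencing were done separately for each batch. Animal, culture, library and sequencing run therefore cannot be told apart between batches. Each treatment had 3 wells in each of 2 batches. Vehicle and culture medium each had 3 wells in batch 1 and 6 in batch 2. Wells of a batch are technical replicates of 1 animal. P-values over wells measure that spread and 2 batches, each of 1 animal.

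Depth was 2289425 to 8975207 reads per WT well and 558190 to 2210264 per ST well. The median correlation of a WT well with the other wells of its group was between 0.957 and 0.992 on log2 values, and no pair of wells agreed within counting noise. The cells carried the label's identity: Alb and Ttr, defining markers of hepatocytes, had 60582 to 100544 and 32927 to 53406 reads in the vehicle wells. The defining erythroid marker Hbb had at most 2 reads in a vehicle well, and Alas2, the erythroid form of the first enzyme of the pathway, at most 1. Clec4f of Kupffer cells had 31 to 127 reads there, Stab2 of endothelial cells at most 3, and Epcam of biliary cells 150 to 302. Of the other biliary genes Sox9 had 10 to 29 reads, and Krt19, Krt7 and Cftr had at most 3. Of the stellate list Reln had 1170 to 2223 reads and the others at most 11. Levels are given as CPM, counts scaled to the library total of a well, and L2FC as fitted with TMM factors. The summed CPM of the hepatocyte list (8 of 8 genes in the table) were 37490 to 40780 in the vehicle wells of batch 1 and 40280 to 44860 in those of batch 2, and 7054 to 52940 in the treated wells. They were lowest with diclofenac 400 µM (7054 to 9555, all 8 genes lower), followed by ranitidine 4000 µM (12070 to 17880, all 8 lower) and valproic acid 10000 µM (15920 to 22670, all 8 lower), and 7 of 8 were lower with isoniazid 10000 µM. Reln, the one stellate gene tested, was lower in 12 of 14 high concentrations, with 35.8 to 73.7 CPM for the summed list with caffeine 10000 µM and 47.5 to 69.1 with WY14643 200 µM against 206.3 to 300.9 in vehicle wells. Of 4 Kupffer genes tested 3 were lower with acetaminophen, caffeine, diclofenac, doxorubicin, indomethacin, ketoconazole, naproxen, ranitidine and valproic acid at their high concentrations, and the remaining one was higher with acetaminophen, diclofenac, ketoconazole, ranitidine and valproic acid. Of 2 biliary genes tested, both were lower with chloramphenicol and diclofenac, and 1 with indomethacin, at their high concentrations. With naproxen, ranitidine, simvastatin and WY14643 there was 1 higher and 1 lower, and with isoniazid, ketoconazole and valproic acid 1 was higher. The summed biliary list was 33.1 to 49.0 CPM in vehicle wells. It was 4.36 to 9.52 with diclofenac 400 µM and 49.6 to 74.2 with valproic acid 10000 µM. The part of these lists in the results below was not tested. In bulk lysates, fewer cells of a type and less RNA per cell cannot be told apart.

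Heme, the iron porphyrin of cytochrome P450 enzymes, is built in a chain that begins and ends in mitochondria. ALAS1 joins glycine and succinyl-CoA to aminolevulinate in the step that limits the rate in liver, and its gene is held down by heme itself and raised by drugs that induce cytochrome P450s. ALAD joins aminolevulinate to porphobilinogen, UROS closes the first ring, UROD and CPOX trim its side chains, PPOX oxidizes it and FECH inserts iron. ABCB6 is a transporter of porphyrins. Loss of function of enzymes after ALAS1 underlies porphyrias, in which hepatic attacks can be set off by drugs that raise ALAS1.

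The RefSeq promoter table used here (build GRCr8) matched 7 of the 8 members, all but Cpox. The 250 bases before the start are shown for Alas1, the rate-limiting step, and for Alad, the next step, because their transcripts changed in opposite directions in 7 of the 14 high concentrations. Both genes lie on the minus strand, and the sequences are written 5′ to 3′ towards the start. Capitals mark a match to the NRF1 motif (GCGCNTGCG) in Alas1 and to the E-box (CACGTG) in Alad, both strands searched.
Alas1, chr8:115768643-115768892: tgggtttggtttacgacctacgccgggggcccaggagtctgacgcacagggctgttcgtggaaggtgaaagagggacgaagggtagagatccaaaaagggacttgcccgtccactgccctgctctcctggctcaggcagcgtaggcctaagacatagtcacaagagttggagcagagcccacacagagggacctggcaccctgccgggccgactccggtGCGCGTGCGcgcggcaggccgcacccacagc
Alad, chr5:80987902-80988151: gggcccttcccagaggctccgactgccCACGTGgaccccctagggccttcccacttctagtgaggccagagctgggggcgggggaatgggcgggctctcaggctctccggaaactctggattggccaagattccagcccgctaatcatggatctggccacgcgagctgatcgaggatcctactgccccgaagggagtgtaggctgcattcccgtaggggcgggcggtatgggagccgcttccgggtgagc
The NRF1 match began 31 bases before the start of Alas1, and the E-box 223 bases before that of Alad. Among 33469 promoters of the same length, 5.03% held the NRF1 letters and 5.59% the E-box. Abcb6 also held both, the NRF1 letters 22 bases and the E-box 226 bases before its start, and Urod held the E-box 75 bases before. The windows of Uros, Ppox and Fech held neither. A match of letters is a description of the window only.

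Alas1 rose in most high concentrations and fell in none, while Alad and Cpox mostly fell. In the joint fit of both batches (edgeR, adjusted p under 0.05, batch as a term), Alas1 was higher than vehicle in 11 of 14 high concentrations and in 3 of 14 low ones. No decrease passed in any of the 28, at the unadjusted p under 0.05 or by DESeq2 either. Across all genes, 25.4% of gene by treatment pairs were called higher and 25.5% lower at the high concentrations, and 131 genes (1.29% of 10191) were called higher in at least 11 high concentrations and lower in none. Of the other members, Alad was called lower in 8 high concentrations and higher in 2, Cpox lower in 8 and higher in 3, Fech lower in 4 and higher in 3, Uros lower in 1 and higher in 3, and Urod and Ppox each lower in 2 and higher in 1. Without replicate 3 of the treated groups Urod was lower in 4, and without replicate 2 Fech was higher in 1. Summed over the 7 members, 49 of 98 pairs passed at the high concentrations (24 higher and 25 lower, 50%), a share at the background of all genes, so the total says nothing particular of these enzymes. In each batch as well as jointly, 13 pairs were higher (14.3% over all genes) and 16 lower (14.0%), and 18 of the 98 had an absolute L2FC of at least 1 (15.6%). The median L2FC over these 98 pairs was -0.05, beside 0.00 over all genes.

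**Figure D1:**
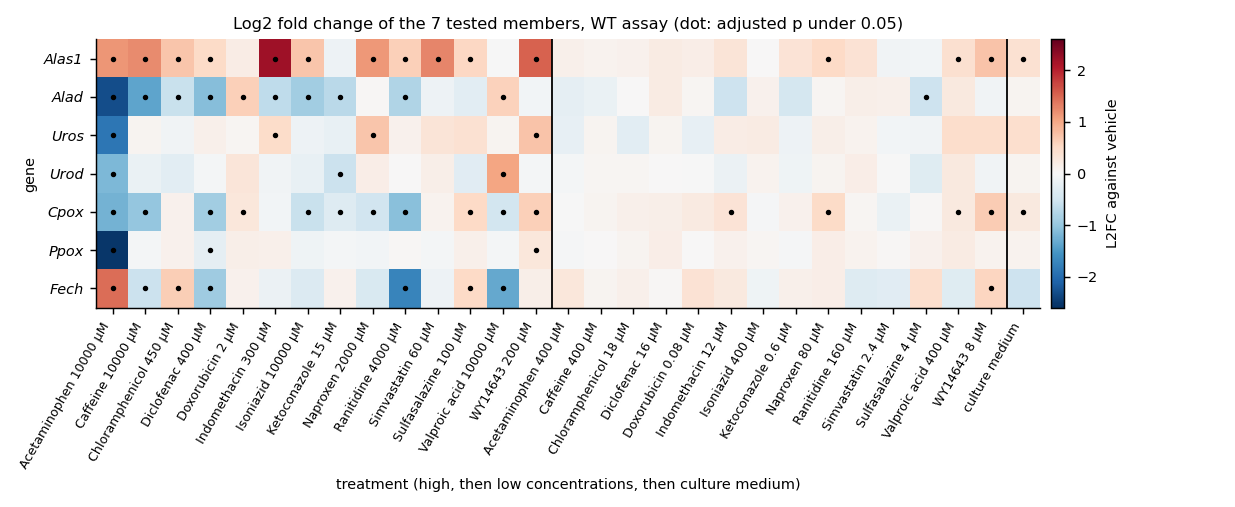
Log2 fold change against vehicle of the 7 tested members (rows) in the 14 high concentrations, the 14 low concentrations and culture medium (columns), from the joint fit of both batches. A dot marks an adjusted p under 0.05; the Alas1 row holds dots in 11 high and 3 low columns, all red, the acetaminophen 10000 µM column holds 7, and culture medium holds dots for Alas1 and Cpox.

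The members are set here against the share of all genes called in the same treatment, given in parentheses. At acetaminophen 10000 µM 7 of 7 tested members passed (78.9% of all genes), 2 higher and 5 lower, with a member median of -1.22. At diclofenac 400 µM 1 was higher and 4 were lower (71.7%), at caffeine 10000 µM 1 and 3 (66.2%), at ranitidine 4000 µM 1 and 3 (66.2%), and at valproic acid 10000 µM 2 and 2 (66.7%). WY14643 at 200 µM had 4 members higher and none lower (51.3%), of which the Ppox call was lost with library totals alone. At sulfasalazine 100 µM 3 were higher and none lower (41.0%). There the Fech call was lost and Urod was called lower (-0.43, adjusted p = 0.0121) with library totals alone, and in batch 2 alone Alad (-0.95, adjusted p = 8.5e-04) and Urod (-0.75, adjusted p = 0.00144) were lower while Alas1 and Cpox did not pass. At doxorubicin 2 µM 2 were higher and none lower (19.4%), and at simvastatin 60 µM Alas1 alone was higher (23.9%). Indomethacin 300 µM had 2 higher and 1 lower (54.7%), naproxen 2000 µM 2 and 1 (53.8%), and chloramphenicol 450 µM 2 and 1 (33.3%). With library totals alone the Uros call at indomethacin 300 µM was lost and Cpox was called lower (-0.22). Ppox was lost at diclofenac 400 µM. Called higher besides were Cpox and Ppox at chloramphenicol 450 µM (0.23 and 0.25) and Alas1 and Ppox at valproic acid 10000 µM (0.26 and 0.21). Isoniazid 10000 µM had 1 higher and 2 lower (34.7%), and ketoconazole 15 µM none higher and 3 lower (51.3%).

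At the low concentrations 8 member calls were higher and 1 was lower, of 98 pairs, beside 4.90% higher and 4.50% lower over all genes. Without the second well of each treated group 4 calls were left in all. The split of directions moved with the processing: in batch 2 against vehicle wells of the own plate 5 were higher (4 of Cpox, 1 of Fech) and 5 lower (4 of Alad, 1 of Urod), with none of Alas1, and with library totals alone 7 were higher and 3 lower. WY14643 8 µM had 3 members higher (56.2% of all genes), Alas1, Cpox and Fech. Valproic acid 400 µM (29.1%) and naproxen 80 µM (16.0%) each had Alas1 and Cpox higher. Indomethacin 12 µM had Cpox higher (5.87%), and sulfasalazine 4 µM had Alad lower (17.4%). The other 9 low concentrations had no member called, 5 of their 63 pairs at an unadjusted p under 0.05, and no call by DESeq2. There the shares of all genes were 1.38% for acetaminophen 400 µM, 0.118% for caffeine 400 µM, 0.0883% for chloramphenicol 18 µM, 0.137% for diclofenac 16 µM, 1.32% for doxorubicin 0.08 µM, 0.0196% for isoniazid 400 µM, 1.62% for ketoconazole 0.6 µM, 0.0589% for ranitidine 160 µM and 2.40% for simvastatin 2.4 µM. In these 9, few genes of any kind moved.

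The level of Alas1 in vehicle wells was 43.4, 44.8 and 38.0 CPM in batch 1, and 41.1 to 55.3 with a median of 50.9 in the 6 wells of batch 2. With indomethacin 300 µM, an inhibitor of cyclooxygenases, the wells held 177, 219.5 and 212 CPM in batch 1 and 190.1, 199 and 157 in batch 2. Every treated well was above every vehicle well of its batch, and the L2FC was 2.20 ± 0.13 (SE, n = 6 wells, adjusted p = 2.3e-35). This was the largest change of Alas1 over the 28 treatments, and the L2FC was 2.55 in batch 1 and 1.99 in batch 2 alone.

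At 200 µM WY14643, a PPARα agonist, gave 112, 110.1 and 136 CPM in the first batch and 133, 105 and 94.0 in the second (L2FC 1.54 ± 0.13, adjusted p = 2.4e-22). At 8 µM the wells held 83.7, 65.3 and 60.9 CPM in batch 1 and 59.0, 50.0 and 63.5 in batch 2 (0.74 ± 0.13, adjusted p = 5.9e-07). At 8 µM the wells of batch 2 overlapped the vehicle wells, and against the vehicle wells of the same plate in batch 2, the only comparison of this chemical with vehicle within a plate, the L2FC at 8 µM was 0.33 and did not pass. The L2FC there was 1.11 in batch 1 and 0.40 in batch 2, and 0.45 over both with library totals alone, which passed. The high concentration exceeded the low one by an L2FC of 0.81 ± 0.14 (adjusted p = 2.0e-05).

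Simvastatin 60 µM, an inhibitor of HMG-CoA reductase, gave 116, 113 and 107 CPM in batch 1 and 109.9, 86.4 and 101 in batch 2 (1.26 ± 0.13, adjusted p = 9.8e-16). Caffeine 10000 µM gave 89.7, 110.5 and 111 CPM in batch 1 and 89.0, 92.6 and 109.6 in batch 2 (1.24 ± 0.13, adjusted p = 2.5e-16). For both, no treated well reached down to a vehicle well of its batch. At the low concentrations of these 2 chemicals the L2FC was -0.10 ± 0.14 for simvastatin 2.4 µM and 0.09 ± 0.13 for caffeine 400 µM, neither past the threshold.

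Acetaminophen 10000 µM gave 62.9, 93.8 and 82.8 CPM in batch 1 and 80.2, 84.0 and 65.2 in batch 2 (1.16 ± 0.13, adjusted p = 6.9e-15). All 6 wells were above the vehicle wells, and the size depended on the scaling: with library totals alone in place of TMM factors the L2FC was 0.75 and the median of all genes was -0.43. Naproxen 2000 µM gave 88.0, 78.3 and 68.3 CPM in batch 1 and 134, 131 and 109 in batch 2 (1.13 ± 0.13, adjusted p = 6.9e-14), so the batches differed in level here (L2FC 0.91 and 1.37) but not past the threshold.

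A smaller rise was seen in 4 further high concentrations, again with every treated well above the vehicle wells of its batch. Chloramphenicol 450 µM gave 59.4, 66.1 and 107 CPM in batch 1 and 69.5, 94.6 and 109 in batch 2 (0.73 ± 0.13, adjusted p = 2.6e-06), and 1 well of batch 1 stood well above the others: without replicate 3 of the treated groups the L2FC was 0.49. Isoniazid 10000 µM gave 67.1, 63.2 and 89.6 CPM in batch 1 and 90.9, 85.3 and 80.1 in batch 2 (0.72 ± 0.13, adjusted p = 2.2e-06). Ranitidine 4000 µM gave 61.2, 61.8 and 77.2 CPM in batch 1 and 78.3, 65.3 and 63.5 in batch 2 (0.62 ± 0.13, adjusted p = 1.6e-05). Diclofenac 400 µM gave 54.8, 71.9 and 74.8 CPM in batch 1 and 78.2, 73.1 and 82.5 in batch 2 (0.50 ± 0.13, adjusted p = 4.6e-04).

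**Figure D2:**
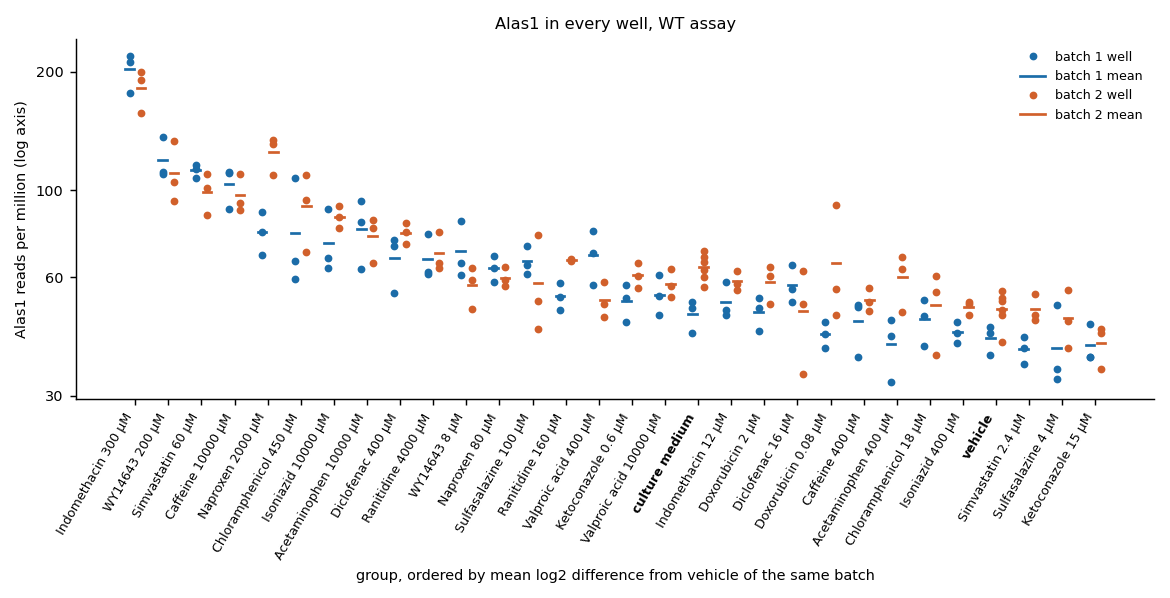
Alas1 in every WT well, in CPM on a log axis, for the 28 treatments, vehicle and culture medium; points are wells, lines are the mean of a batch, and groups are ordered by the mean log2 difference from vehicle of the same batch. The indomethacin 300 µM wells lie between 157 and 219.5, above those of every other group.

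A further 3 calls were made in the joint fit but not in each batch by itself: sulfasalazine 100 µM (0.54 ± 0.13), naproxen 80 µM (0.51 ± 0.13) and valproic acid 400 µM (0.41 ± 0.13). In batch 2 alone their L2FC was 0.28, 0.29 and 0.13. The batches were not shown to differ in the effect on Alas1 in any treatment (smallest adjusted p = 0.154 by edgeR, 6 of 28 at an unadjusted p under 0.05). The 3 high concentrations at which Alas1 was not called were doxorubicin 2 µM (0.19 ± 0.13), ketoconazole 15 µM (-0.14 ± 0.13) and valproic acid 10000 µM (-0.01 ± 0.13). For valproic acid 10000 µM the call depended on the scaling: the L2FC was 0.26 with library totals alone, which passed, where the median of all genes rose by 0.27. Ordered by the mean log2 CPM difference from vehicle, only 2 of the 29 gaps between neighbours exceeded the pooled SD of wells of a group (0.21), those below indomethacin 300 µM and below naproxen 2000 µM.

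Between the 2 concentrations of a chemical, a contrast that uses no vehicle wells, Alas1 was higher at the high one for 9 of 14 chemicals and lower for 2, where 40.8% of gene by chemical pairs of all genes passed. Of the 9 higher calls 7 also passed in each batch. Naproxen did not in batch 1 (0.10), nor sulfasalazine in batch 2 (0.34). The largest differences were 1.87 ± 0.15 for indomethacin, 1.36 ± 0.15 for simvastatin, 1.15 ± 0.15 for caffeine and 1.02 ± 0.15 for acetaminophen. Alas1 was lower at the high concentration of ketoconazole (-0.49 ± 0.15, adjusted p = 0.00385) and of valproic acid (-0.42 ± 0.15, adjusted p = 0.00847). In the ST assay neither passed (-0.18, adjusted p = 0.296, and -0.25, adjusted p = 0.123), and each failed in 1 batch by itself, ketoconazole in batch 1 (-0.38) and valproic acid in batch 2 (-0.19). The valproic acid difference was -0.12 with library totals alone and did not pass, and for neither chemical was the high concentration itself called lower than vehicle.

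In culture medium the wells held 50.0, 52.0 and 43.3 CPM of Alas1 in batch 1 and 56.7 to 70.1 (median 64.2) in batch 2, so that every batch 2 well lay above every vehicle well. The L2FC against vehicle was 0.39 ± 0.12 (adjusted p = 0.0186), and Cpox was also called higher, by 0.26 ± 0.08 (adjusted p = 0.0164), where 12.6% of all genes passed. The ST assay gave 0.16 ± 0.12 for Alas1 (adjusted p = 0.357), not past the threshold. Neither passed in batch 1 alone, and Alas1 did in batch 2 (0.43). Leaving out single wells gave 1 to 3 member calls, 3 without vehicle replicate 6 of batch 2 and 1 without medium replicate 2. The other 5 tested members had an L2FC between -0.53 (Fech) and 0.43 (Uros), none past the threshold. With library totals alone the Cpox call was lost (0.18, adjusted p = 0.111) and Fech was called lower (-0.61, adjusted p = 0.0341). Between vehicle wells of plates 3 and 2 of batch 2 the 7 members differed by an L2FC of -0.10 to 0.49, with adjusted p of 0.373 to 0.905 (edgeR, none at an unadjusted p under 0.05).

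The ST assay gave Alas1 calls in the same 14 treatments, all higher, and in no other. Over all ST genes, 34.8% of gene by treatment pairs passed. Indomethacin 300 µM gave an L2FC of 2.18 ± 0.13, WY14643 200 µM 1.56 ± 0.13, acetaminophen 10000 µM 1.42 ± 0.13 and diclofenac 400 µM 0.79 ± 0.13. For Ppox the assays shared 2 calls, of 3 in WT and 5 in ST. The assays differed for Alas1 by a median of 0.11 in L2FC over the 28 treatments, and by 0.30 at most. Since both assays read the same lysates, this compares the measurement and not the cultures.

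**Figure D3:**
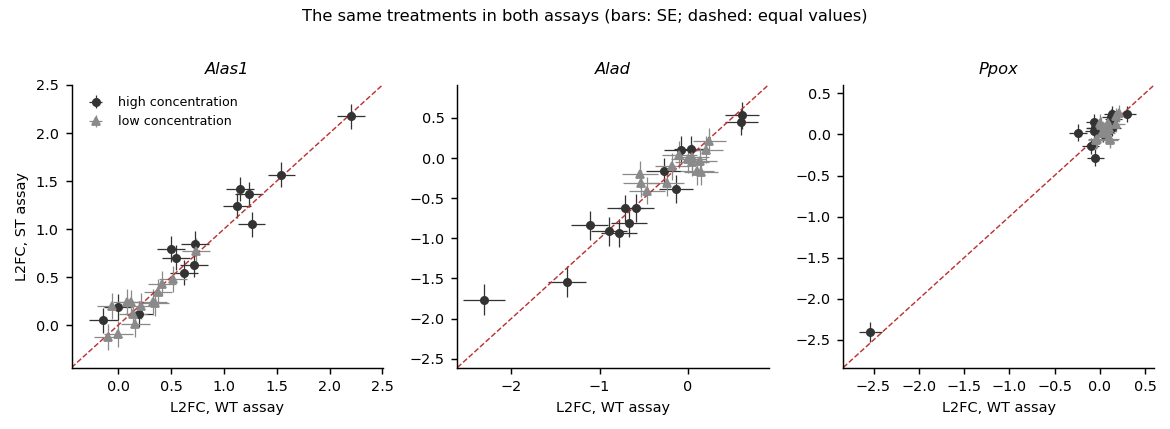
L2FC against vehicle in the WT assay (x axis) and in the ST assay (y axis) for the 3 members tested in both, 1 point per treatment, circles for high and triangles for low concentrations, bars for the SE. Points lie near the dashed line of equal values; the largest gap is 0.30 for Alas1, 0.55 for Alad and 0.26 for Ppox.

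Alad, the second enzyme, was lower at 8 of the 14 high concentrations, and 7 of these were treatments in which Alas1 was higher: acetaminophen, caffeine, chloramphenicol, diclofenac, indomethacin, isoniazid and ranitidine. Its vehicle wells held 22.0, 26.0 and 18.2 CPM in batch 1 and 21.3 to 33.5 (median 24.3) in batch 2. With acetaminophen 10000 µM they held 2.47, 4.00 and 3.02 CPM in batch 1 and 3.44, 4.86 and 3.94 in batch 2 (L2FC -2.31 ± 0.24, adjusted p = 6.1e-17). All 6 wells were far below the vehicle range. With caffeine 10000 µM they held 7.32, 8.09 and 12.9 CPM and 5.72, 7.36 and 11.4 CPM in batches 1 and 2 (-1.37 ± 0.22, adjusted p = 8.2e-09), and with diclofenac 400 µM 8.73, 14.8 and 13.7 CPM and 11.4, 12.2 and 15.0 CPM (-1.11 ± 0.21, adjusted p = 7.3e-07). In each of these, no treated well reached a vehicle well of its batch. The ST assay gave -1.76 ± 0.19, -1.54 ± 0.19 and -0.84 ± 0.18 for the same treatments.

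The other 5 decreases of Alad ran from -0.59 at chloramphenicol 450 µM to -0.89 at isoniazid 10000 µM. In the WT assay they passed in the joint fit and in batch 2 but not in batch 1 alone. The ST assay called Alad lower in 9 high concentrations in batch 1 alone and higher in none, where the WT assay called 3 lower. Alad was higher at doxorubicin 2 µM and at valproic acid 10000 µM, by 0.61 and 0.60, a pair of treatments in which Alas1 was not called. Neither increase passed in batch 1 alone (adjusted p = 0.315 and 0.278). At the low concentrations the one call was sulfasalazine 4 µM (-0.54, adjusted p = 0.0484). It passed in neither batch alone and not in the ST assay (-0.20, adjusted p = 0.523), and was lost with no filter, with no batch term, and without replicate 2 of vehicle in batch 1 or any of the replicates 4, 5 and 6 in batch 2, or without the first or the second well of the treated groups. Over the 28 treatments 10 of the 11 Alad calls were also made, in the same direction, by the ST assay. At sulfasalazine 100 µM the L2FC was 0.37 in batch 1 and -0.95 in batch 2, a difference of -1.29 ± 0.38 that passed (adjusted p = 0.0401, where 2.44% of pairs over all genes did), beside a joint value of -0.27. The value of batch 1 did not pass (adjusted p = 0.439) and its wells overlapped vehicle. In batch 1 sulfasalazine was on another plate than vehicle, so that plate and batch cannot be told apart in this difference or in that of Cpox.

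Uros, which closes the ring, was the member with the fewest reads among those tested (9 to 33 in a vehicle well), and single wells were correspondingly scattered. Its vehicle wells held 2.42, 3.64 and 3.39 CPM in batch 1 and 1.55 to 4.58 (median 2.74) in batch 2. With acetaminophen 10000 µM the wells held 0 to 5 reads in batch 1 and 6 or 7 in batch 2, which is 0, 0.768 and 0.403 CPM and 0.802, 0.710 and 0.675 CPM (L2FC -1.88 ± 0.29, adjusted p = 3.8e-09). All 6 wells were below the vehicle wells. Uros was higher with naproxen 2000 µM (0.73), WY14643 200 µM (0.73) and indomethacin 300 µM (0.47), all treatments in which Alas1 was higher too, but none of the 3 passed in batch 1 alone. The indomethacin call (adjusted p = 0.0489) did not pass in batch 2 alone either, nor with library totals (0.33, adjusted p = 0.18). At the low concentrations Uros had no call, 2 at the unadjusted p under 0.05 and none by DESeq2.

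Urod, the decarboxylase whose loss causes porphyria cutanea tarda, went in opposite directions in its largest changes. Its vehicle wells held 29.6 to 41.7 CPM in batch 1 and 39.3 to 53.4 (median 45.6) in batch 2. With acetaminophen 10000 µM they held 11.5, 12.0 and 11.5 CPM in batch 1 and 15.7, 24.4 and 9.23 in batch 2 (-1.16 ± 0.17, adjusted p = 1.3e-10). With valproic acid 10000 µM they held 63.7, 81.6 and 94.6 CPM in batch 1 and 148, 120.5 and 109 in batch 2 (1.02 ± 0.15, adjusted p = 3.1e-10). In both treatments the groups were apart in each batch. With valproic acid 10000 µM the summed CPM of the erythroid list (8 of 12 genes in the table, none tested) were 10.4 to 15.0, against at most 2.59 in vehicle wells, while Hbb had at most 3 reads and Alas2 at most 1 in any well; the sum was carried by Epor (up to 96 reads, the other genes at most 7 in any well), and its part was not tested. Ketoconazole 15 µM gave the third call (-0.56), which passed in batch 1 and not in batch 2, and no low concentration was called, 1 at the unadjusted p under 0.05 and none by DESeq2.

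Cpox, the oxidase that follows UROD, had the most calls of any member, 15 over the 28 treatments. Vehicle wells held 78.8, 74.3 and 69.6 CPM in batch 1 and 60.2 to 72.0 (median 66.5) in batch 2. With acetaminophen 10000 µM they held 17.03, 22.8 and 18.5 CPM in batch 1 and 25.8, 29.4 and 18.6 in batch 2 (-1.22 ± 0.10, adjusted p = 1.9e-25). With ranitidine 4000 µM they held 29.2, 29.1 and 30.5 CPM in batch 1 and 35.4, 36.2 and 25.3 in batch 2 (-1.08 ± 0.09, adjusted p = 1.2e-21), and with caffeine 10000 µM 28.8, 28.3 and 32.4 CPM and 35.5, 32.1 and 32.5 CPM (-0.998 ± 0.094, adjusted p = 1.9e-19). The treated wells of all 3 lay under every vehicle well of their batch. Of its 8 decreases at high concentrations, 7 also passed in each batch, and 6 were in treatments in which Alas1 was higher.

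Cpox was also the member that turned with concentration. At naproxen 80 µM it was higher by 0.50 ± 0.09 (adjusted p = 3.1e-06) and at 2000 µM lower by -0.49 ± 0.09 (adjusted p = 1.1e-06), and both passed in each batch. With valproic acid the L2FC was 0.26 ± 0.09 at 400 µM and -0.48 ± 0.09 at 10000 µM, and in batch 2 the wells of both overlapped those of vehicle. At 400 µM they overlapped in batch 1 too, where the value of 0.12 did not pass. With library totals alone these 4 values were 0.40, -0.50, 0.22 and -0.21 and kept their direction and call. Between the concentrations, the high one was lower for 9 of 14 chemicals and higher for 2, sulfasalazine (0.50 ± 0.10) and simvastatin (0.27 ± 0.10). Of the decreases 8 also passed in each batch. Neither increase passed in batch 2 alone by edgeR (0.21, adjusted p = 0.361, and 0.07, adjusted p = 0.762). With library totals alone the simvastatin one was lost (0.17, adjusted p = 0.199). Both concentrations of WY14643 raised Cpox, by 0.67 ± 0.09 at 8 µM and 0.61 ± 0.09 at 200 µM, in each batch, and the difference between them was -0.06 ± 0.10. With library totals alone both still passed at 0.38, where the median of all genes was -0.29 at 8 µM and -0.24 at 200 µM. At sulfasalazine 100 µM the L2FC was 0.75 in batch 1 and 0.21 in batch 2, and this difference passed (-0.51 ± 0.15, adjusted p = 0.0439).

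Ppox, whose product is protoporphyrin, stayed near vehicle in nearly all groups, with 1 large exception. Vehicle wells held 18.9, 21.1 and 18.9 CPM in batch 1 and 17.6 to 25.1 (median 20.3) in batch 2. With acetaminophen 10000 µM they held 1.10, 3.54 and 2.21 CPM in batch 1 and 2.63, 3.20 and 2.36 in batch 2 (-2.54 ± 0.12, adjusted p = 2.0e-45), the largest decrease of any member, and the ST assay gave -2.40 ± 0.12. Diclofenac 400 µM (-0.24) and WY14643 200 µM (0.30) were its other calls, with wells that overlapped vehicle, and the ST assay gave 0.02 and 0.25. Both were lost with library totals alone (-0.10, adjusted p = 0.336, and 0.07, adjusted p = 0.506). There edgeR called Ppox higher at chloramphenicol 450 µM (0.25, adjusted p = 0.0206) and valproic acid 10000 µM (0.21, adjusted p = 0.0292). In the joint fit with TMM factors, its L2FC lay between -0.24 and 0.30 over the other 13 high and the 14 low concentrations.

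Fech, the ferrochelatase that inserts iron, rose with acetaminophen, in which the enzymes before it other than Alas1 fell. Its vehicle wells held 80.3, 61.5 and 118 CPM in batch 1 and 45.9 to 74.7 (median 67.2) in batch 2, where 5 wells held at least 66.6. With acetaminophen 10000 µM they held 200.0, 191 and 136 CPM in batch 1 and 121, 108 and 156 in batch 2 (1.45 ± 0.22, adjusted p = 8.2e-10), above every vehicle well, in the treatment in which Alad, Uros, Urod, Cpox and Ppox were lower. With ranitidine 4000 µM they held 23.7, 17.1 and 15.6 CPM in batch 1 and 20.3, 31.6 and 18.2 in batch 2 (-1.71 ± 0.24, adjusted p = 2.5e-10), and with valproic acid 10000 µM 50.4, 51.3 and 42.4 CPM and 11.8, 31.6 and 27.3 CPM (-1.34 ± 0.24, adjusted p = 2.2e-07). Both groups lay below the vehicle wells in each batch. At valproic acid 10000 µM Urod and Fech thus changed in opposite directions. The other calls of Fech were -0.92 at diclofenac 400 µM, -0.56 at caffeine 10000 µM, 0.63 at chloramphenicol 450 µM, 0.53 at sulfasalazine 100 µM and 0.55 at WY14643 8 µM, of which the diclofenac one passed in each batch. The sulfasalazine and WY14643 calls were lost with library totals alone (0.40, adjusted p = 0.148, and 0.27, adjusted p = 0.306). Without the lowest vehicle well (replicate 6 of batch 2) Fech was called higher in 2 high concentrations and in none of the low ones, and lower in 4.

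**Figure D4:**
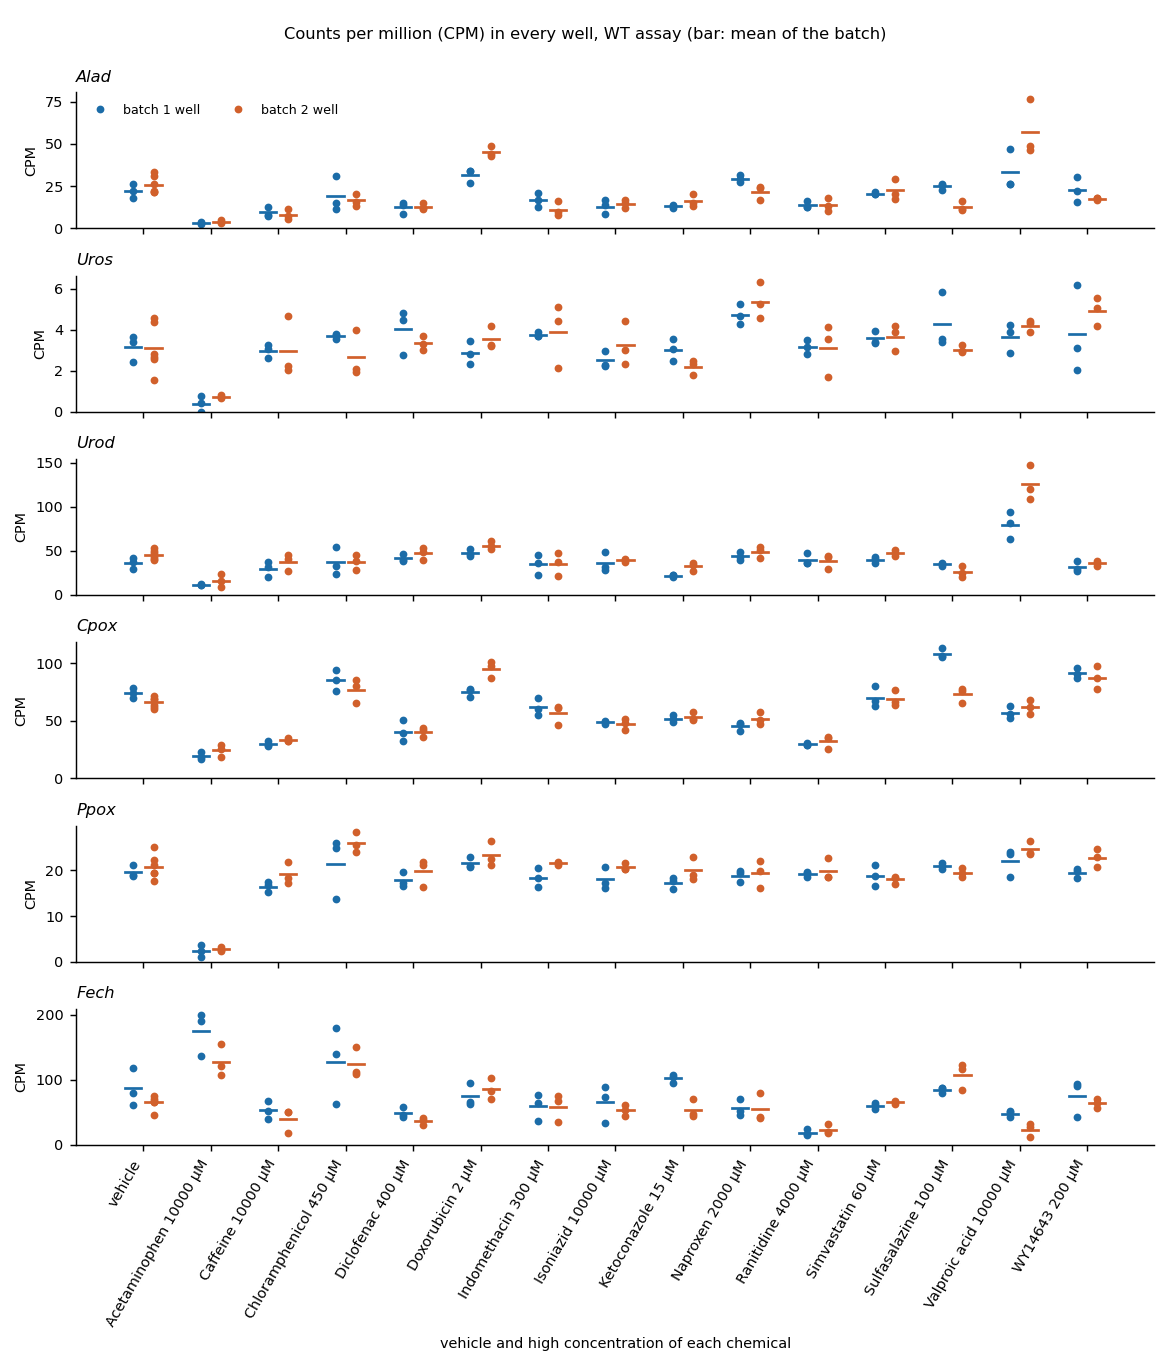
CPM of Alad, Uros, Urod, Cpox, Ppox and Fech in every WT well of vehicle and the 14 high concentrations, points for wells and bars for the mean of a batch, on linear axes from 0. The batch means of acetaminophen 10000 µM are the lowest for Alad, Uros, Urod, Cpox and Ppox and above vehicle for Fech, and those of valproic acid 10000 µM are the highest for Urod.

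Abcb6 was near the limit of the WT assay, with 0 to 2 reads in each vehicle well, and no fold is given from it. The ST assay counted the same probe with 3, 5 and 7 reads in the vehicle wells of batch 1 and 4 to 8 in those of batch 2, that is 4.10 ± 1.86 and 4.71 ± 1.90 CPM (SD, n = 3 and n = 6). With valproic acid 10000 µM the ST wells held 12, 12 and 19 reads in batch 1 and 22 to 31 in batch 2, or 14.5 ± 5.49 and 16.5 ± 1.47 CPM, above every vehicle well. In wells without valproic acid, the ST count was 0 to 22, the highest with diclofenac 400 µM in batch 2. In the WT fit without the filter on low counts valproic acid 10000 µM was the one treatment of 28 in which Abcb6 passed (adjusted p = 0.0359, 3 to 8 reads in the batch 2 wells and 0 to 6 in those of batch 1). The ST counts were not tested.

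The same scheme was read in related genes. Of heme breakdown, 23 of 56 pairs were higher and 11 lower at the high concentrations (median L2FC 0.21), beside 25.4% and 25.5% over all genes. Hmox1, the inducible heme oxygenase, was higher in 9 and lower in 1, and rose most with acetaminophen 10000 µM (2.51 ± 0.26, adjusted p = 7.4e-17), from 170 ± 19.8 to 813 ± 76.5 CPM in batch 1. Of the biliverdin reductases, Blvra was lower in 8 and higher in none, most at diclofenac 400 µM (-1.52 ± 0.23), while Blvrb was higher in 6 and lower in 1, acetaminophen 10000 µM (-1.43 ± 0.16).

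Of heme and porphyrin transport and binding, 32 of 112 pairs were higher and 31 lower (median 0.01), near the 25.4% and 25.5% over all genes. Flvcr1, a heme exporter, was higher in 11 high concentrations and lower in none, and rose from 21.7 ± 1.40 to 187 ± 46.1 CPM in batch 1 and from 15.8 ± 3.26 to 125 ± 7.52 in batch 2 with acetaminophen 10000 µM (3.55 ± 0.11, adjusted p = 4.2e-69). Hpx, the plasma heme carrier hemopexin, was lower in 9 and higher in 3, and lowest with diclofenac 400 µM (-2.09 ± 0.14), and Tspo, an outer mitochondrial membrane protein that binds porphyrins, was lower in 10 and higher in none, most with caffeine 10000 µM (-1.85 ± 0.12).

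Of substrate and iron supply, 37 of 112 pairs were higher and 25 lower (median 0.09), beside 25.4% and 25.5% over all genes. Slc25a37, mitoferrin, rose most with ranitidine 4000 µM (1.99 ± 0.17), the treatment with the largest decrease of Fech. Shmt2, which makes mitochondrial glycine from serine, and Suclg1, a subunit of succinyl-CoA ligase, had their largest decrease with acetaminophen 10000 µM, an L2FC of -2.51 ± 0.22 and -1.58 ± 0.07.

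Of the regulators of Alas1 and its protein, 54 of 126 pairs were higher and 35 lower (median 0.22), beside 25.4% and 25.5% over all genes. The genes with the largest change among these were Nr1i3, Nr1i2 and Hnf4a, each lower with acetaminophen 10000 µM, where Alas1 was higher. Nr1i3, the receptor CAR, had 27 to 41 reads in the vehicle wells of batch 1 and 0 or 1 in the treated wells, and 13 to 48 and 0 to 4 in batch 2 (adjusted p = 8.5e-22). Nr1i2, the receptor PXR, fell from 134 ± 8.16 to 2.78 ± 1.08 CPM in batch 1 and from 132 ± 9.33 to 5.66 ± 1.47 in batch 2 (-4.45 ± 0.19, adjusted p = 8.3e-53). Hnf4a, a hepatocyte transcription factor that is also on the hepatocyte list, had an L2FC of -2.85 ± 0.15. In these wells the summed hepatocyte list was 23310 to 36410 CPM, with 4 of its 8 genes lower and 1 higher. Bach1, a repressor that heme itself inactivates, was higher in 11 high concentrations and lower in none, and Clpx, the mitochondrial chaperone that acts on the ALAS enzymes, was higher in 8 and lower in 4.

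Of the enzymes that carry heme, 69 of 154 pairs were higher and 38 lower (median 0.43, beside a median of 0.00 and shares of 25.4% and 25.5% over all genes). At the low concentrations 45 of 154 were higher and 1 lower, beside 4.90% and 4.50%. Cyp4a1, a fatty acid hydroxylase, rose with WY14643 200 µM from 1.74 ± 0.71 to 3255 ± 180 CPM in batch 1 and from 1.71 ± 0.63 to 2772 ± 287 in batch 2 (10.94 ± 0.40, adjusted p = 3.9e-60). In the same wells Cyp2b2 rose from 3.87 ± 1.85 to 1425 ± 50.3 and from 2.12 ± 0.89 to 712 ± 60.4 CPM (8.70 ± 0.30, adjusted p = 5.4e-63). WY14643 200 µM was the treatment with the second largest Alas1 change in the joint fit. In batch 2 alone naproxen 2000 µM was larger (1.37 against 1.33). Cyp2e1 rose with caffeine 10000 µM from 3.17 ± 0.52 to 566 ± 163 CPM in batch 1 and from 6.71 ± 3.14 to 436 ± 179 in batch 2 (6.83 ± 0.30).

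Over the 60 group means (30 groups in each of 2 batches, log2 CPM with TMM factors, centred within batch), the gene whose pattern was most like that of Alas1 by Pearson's r among the 10190 others was Por (Pearson r = 0.78, Spearman rho = 0.69), the reductase that passes electrons to cytochrome P450s. Next by Pearson's r were Cebpb (0.75, with a higher rho of 0.79), Pnpla8 (0.73), Rad9b (0.72) and Rdh14 (0.72), of which Rad9b had a median of 10 reads per well. Lmnb1 (-0.81), Cep57l1 (-0.76) and Usp54 (-0.76) were the most opposite. Por was called higher in 9 of the 14 high concentrations and lower in 1, Cebpb in 11, and Lmnb1 was called lower in 9. The other members were unlike Alas1 by Pearson's r, from 0.20 for Uros to -0.34 for Alad. Spearman's rho was 0.44 for Uros, which had a median of 21 reads per well, and -0.28 for Alad. The points share vehicle and treatments between batches and a response to many chemicals, and no test was made.

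**Figure D5:**
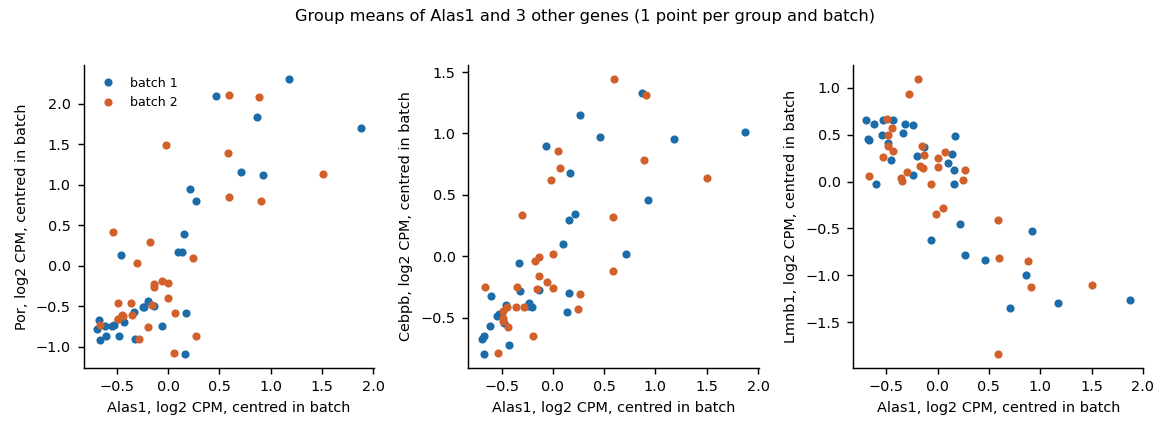
Group means of Por, Cebpb and Lmnb1 (y axes) against those of Alas1 (x axis), log2 CPM centred within batch, 60 points, coloured by batch. Por and Cebpb rise with Alas1 and Lmnb1 falls, with Pearson r of 0.78, 0.75 and -0.81.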

How the data were processed

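Primary hepatocytes were treated for 24 h and lysates were read by the TempO-Seq WT and ST assays on 186 wells each. Per the labels and the methods of the study, the authors demultiplexed the reads, aligned them and deposited raw read counts per probe and well, with STAR 2.5.3a and genome build rn6 named in the submitters' processing notes. The deposited counts were not normalized. Here the counts of probes with the same symbol were added, and genes with a mean of at least 10 reads over the wells of an assay were kept. CPM are counts scaled to the library total of the well. edgeR 4.0.16 (R 4.3.3, limma 3.58.1) fitted all wells of an assay with TMM factors, a quasi-likelihood test, treatment and batch, Benjamini-Hochberg adjustment over all genes tested and a threshold of 0.05. Fits within each batch used the same settings. The fit was tested on simulated counts. Alternatives were DESeq2 1.42.0, RLE factors, library totals, no filter, a minimum absolute L2FC of 1, single batches, vehicle wells of the own plate, no batch term and leaving out wells. Named were all 8 members, single wells of Alas1 in up to 12 treatments and of other members in up to 3 that passed, with the same sign, in the joint fit and in each batch, up to 3 genes of each related list by the same rule, and the 5 genes most like and 3 most unlike Alas1. A related list of other enzymes of the pathway is not reported here. The members, lists and rules were chosen with earlier results of these data known. Intervals cover the spread of wells, and depth per well limits low genes such as Uros and Abcb6. Promoters are RefSeq sequences of GRCr8, which is not the build of the files.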

Additional observations from a re-analysis of the deposited data

Results flagged for a closer look

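There were 4 values that stood out. One Fech well of vehicle in batch 2 held 45.9 CPM where the other 5 held 66.6 to 74.7, and the gap was 0.718 of the group's range. One Uros well of culture medium in batch 2 held 2.18 CPM, from 5 reads in the library of lowest depth (2289425 reads), where the others held 3.91 to 4.73 (0.678 of the range). Groups of 6 wells were examined 14 times, and chance flags about 1 in 20. The effect of sulfasalazine 100 µM differed between the batches for Alad, by -1.29 ± 0.38 (batch 2 minus batch 1, adjusted p = 0.0401), and for Cpox, by -0.51 ± 0.15 (adjusted p = 0.0439). The L2FC of Alad was 0.37 in batch 1, not past the threshold (adjusted p = 0.439), and -0.95 in batch 2. In batch 1 the vehicle wells were on another plate than sulfasalazine.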

How the results depend on the processing

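Of the 9 alternatives other than leaving out wells, 8 kept the counts of member calls within 1.5 times at the high concentrations (49), at the low ones (9), for Alas1 over the 28 treatments (14) and between concentrations (43). The exception was a rule that also asked for an absolute L2FC of 1 or more, which left 18, 0, 6 and 17, and by its construction keeps only larger changes. For culture medium (2) it left 0, and the count was 1 with no filter, 0 in batch 1 alone and 1 in batch 2 alone. The cause was not tested. Counts of single members moved more at the high concentrations. Alad was lower in 3 in batch 1 alone, against 8 jointly. Urod was lower in 4 with vehicle wells of the own plate in batch 2, against 2 jointly. Leaving out a vehicle or medium well, or the same replicate of all treated groups at once, gave 44 to 49, 4 to 10, 13 to 14, 34 to 39 and 1 to 3 calls in the same order, with the 4 without treated replicate 2. The 24 member by treatment pairs given with single wells were chosen because they passed in each batch, so their calls in the single batches were fixed by that choice. Under the other alternatives, of which an absolute L2FC of 1 or more was not applied to them, 1 lost its call (Alas1 with WY14643 8 µM, vehicle wells of the own plate in batch 2, L2FC 0.33) and none reversed. Library totals in place of TMM changed the sign of no member call, but near-equal counts hid exchanges: in culture medium the Cpox call was lost and Fech was called lower, and at the high and low concentrations single calls of Uros, Ppox and Fech were lost while others of Alas1, Alad, Urod, Cpox and Ppox were made. No paired analysis was possible because the labels give no replicate numbers, and wells were numbered in accession order. The batch term holds animal, culture, library and sequencing run together. Single probes were not compared, since each member has 1. Depth limits Abcb6 and Uros, and 2 rats limit all results.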
